A study of Mus musculus with 2 samples.

Results

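The serpins are a family of protease inhibitors whose genes carry the prefix Serpin and a letter, a to i, for their clade. Members were taken as every non-control probe whose gene name on the array starts with Serpin, which gave 64 genes on 87 probes, of 37070 genes on 56594 probes in all. By clade these were 26 genes of clade A, 27 of clade B, 3 of clade E, 2 each of clades F and I, and 1 each of clades C, D, G and H. The samples were skin tumours from 1 P2ry6-/- RNA sample and 1 wild-type (P2ry6+/+) RNA sample, both from male mice that were 2 months old at the start and received the same ultraviolet B (UVB) schedule. Irradiation of shaved dorsal skin began at 180 mJ/cm2, was held there for 10 weeks, was then stepped up by 10 mJ/cm2 a week to reach 300 mJ/cm2 in week 22, and ended in week 40. P2ry6 codes for a cell-surface receptor for extracellular uridine nucleotides. The sources used here do not say whether the deletion was present in every cell, which exons it removed, or how many tumours or animals entered each sample.

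A serpin inhibits by acting as bait. The protease cuts an exposed loop, the loop inserts into the body of the serpin, and the protease is dragged along, distorted and locked in a covalent complex, so each inhibitor molecule is used once. Clade A members are mostly secreted and many circulate in plasma, clade B members mostly lack a classical secretion signal and work inside cells, where epithelia and white blood cells hold many of them, and the remaining clades include regulators of clotting, fibrinolysis, complement and collagen folding. In the skin, clade B serpins are known from keratinocytes, where they hold back proteases of cell death, shedding and inflammation.

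Each sample was measured on 1 single-colour Agilent array, so there was no biological replicate, no test was possible, and every result is a difference between these arrays described by its size. On the knockout-labelled and the wild-type-labelled array, 57.9% and 57.8% of non-control spots stood well above background, and the median signal was 40.0 and 39.9. The technical error of a difference was an SD of 0.12 log2 units between replicate spots of a probe (293 probes) and 0.38 between different probes of a gene (6772 genes). The deleted gene went against its label: its probes read 255 and 97.2 on the knockout-labelled array, against 105 and 39.7 on the wild-type-labelled array, or 2.44-fold higher (scaled signal, in which the 75th percentile of each array is 100). The sources do not say whether these probes lie outside the deleted part. The names used here are therefore those of the labels, and every direction depends on them. Keratinocyte markers were bright on both arrays, and of 11 hepatocyte markers 8 were not above background on either array, among them albumin and transthyretin. The other 3 were above background on both arrays, 2 of them at least 2-fold lower. Apoa2 read 143 on the knockout-labelled and 194 on the wild-type-labelled array, Ttpa 20.3 and 45.2, and Ahsg 8.63 and 22.4.

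Several serpins are recent copies of each other, and the probes that report them are alike. The following 30-base stretches show where the probes of a pair of alike copies in each of clades B and A part, with capitals at the bases that differ within each pair.
Serpinb3a: ttttaTtAtagTttcttctaatctagcatA
Serpinb3c: ttttaAtCtagGttcttctaatctagcatG
Serpina3h: cacaggGgtcaaaTtAaTtctaTgttgtgA
Serpina3i: cacaggAgtcaaaGtTaAtctaCgttgtgG
The Serpinb3a and Serpinb3c stretches differ at 4 bases and the Serpina3h and Serpina3i stretches at 6. Over the whole overlap of the probes, 43 of 48 bases were alike in the Serpinb3 pair and 51 of 57 in the Serpina3 pair. In all, 12 pairs of probes of different members resembled each other in this way, so the values of Serpina1, Serpina3, Serpinb3 and Serpinb6 copies are not independent of one another and each may hold signal from another copy.

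Of the 64 serpins, 34 were well above background (detected) on both arrays, 2 on the knockout-labelled array alone, 5 on the wild-type-labelled array alone and 23 on neither. Among the 34, 10 were lower by 2-fold or more on the knockout-labelled array, against 5.04% of all genes measured. Higher by 2-fold or more were 2, close to the share over all genes (4.8%), and 22 were neither. Regardless of size, 23 serpins lay below 0 and 11 above 0, against 54.9% and 45.1% of all genes. The median difference (knockout-labelled minus wild-type-labelled, log2) was −0.64 over the serpins and −0.06 over all genes, and the serpins ranged from −2.50 to 1.31. Of the 10 lower members 8 belonged to clade B, while both higher members belonged to the Serpina3 group of clade A. The plot of signals by gene shows both values of 33 members.

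**Figure D1:**
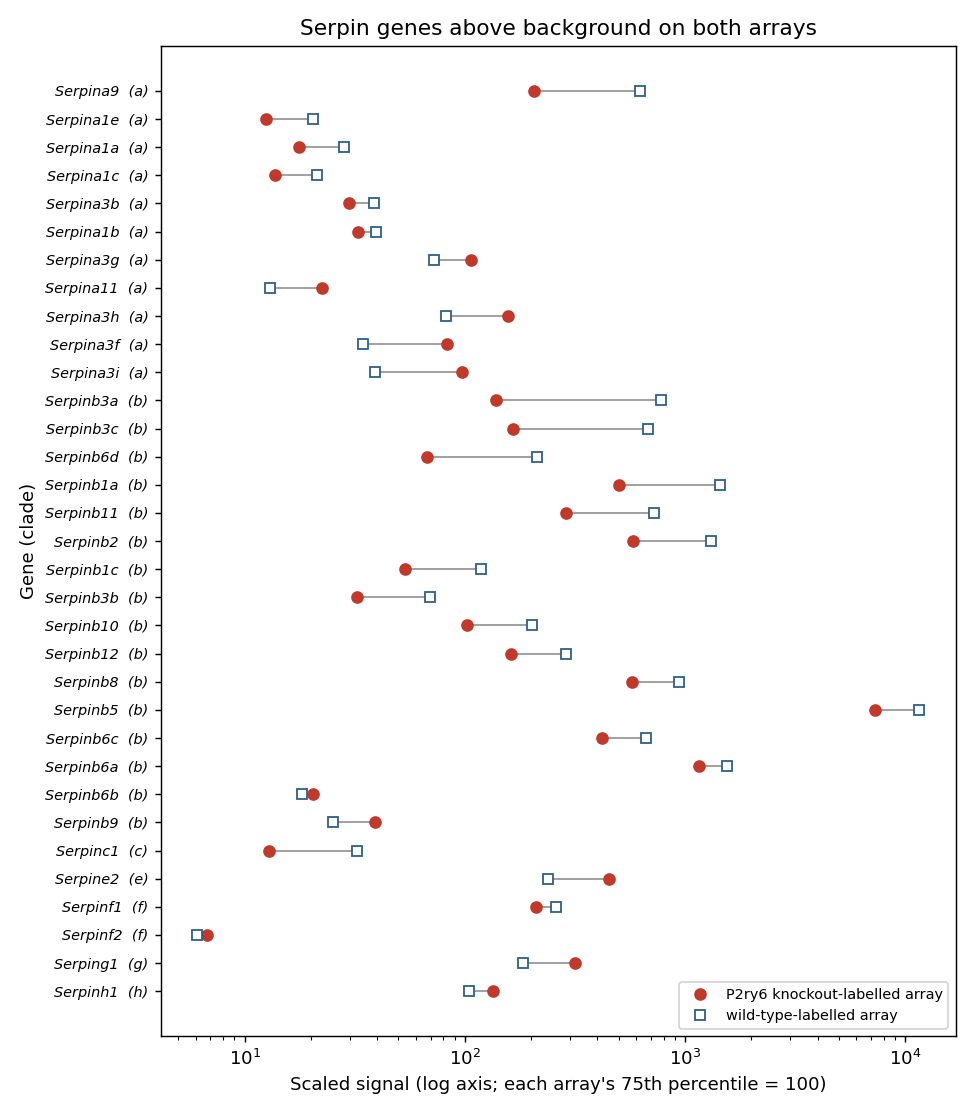
Scaled signal (log axis, 75th percentile of each array = 100) of 33 serpin genes above background on both arrays, ordered by clade and, within a clade, by difference. Filled circles are the knockout-labelled array and open squares the wild-type-labelled array, 1 array each; in clade B, 14 of 16 circles lie left of their squares.

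Clade B held most of the lower genes. Of its 27 genes, 16 were measured on both arrays. Of these, 8 were lower by 2-fold or more and 0 higher, 8 were neither, and the median was −1.04. Differences lay below 0 for 14 genes and above 0 for Serpinb6b and Serpinb9. These genes stand in 2 clusters, 12 on chromosome 1 and 15 on chromosome 13. The chromosome 1 cluster, whose probes span 726 kb (chr1:108778585-109504924, mm9), had all of its 9 measured genes below 0, with 5 of them at least 2-fold lower and a median of −1.10. The chromosome 13 cluster had 7 measured genes, 5 below 0 and 2 above, with 3 at least 2-fold lower and a median of −0.66.

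Of the serpins measured on both arrays, Serpinb3a and Serpinb3c had the largest differences. The Serpinb3 genes are the mouse counterparts of the human squamous cell carcinoma antigens, which inhibit lysosomal cysteine proteases and chymotrypsin-like serine proteases and are made by inflamed and malignant squamous epithelium. Serpinb3a had a scaled signal of 139 on the knockout-labelled array and 782 on the wild-type-labelled array, 5.65-fold lower (log2 difference −2.50), from a probe at chr1:108942312-108942371 (mm9, minus strand). Serpinb3c read 165 on the knockout-labelled array, against 676 on the wild-type-labelled array, 4.09-fold lower (−2.03), from a probe at chr1:109167914-109167973. Serpinb3b read 32.3 on the knockout-labelled array, against 69.3 on the wild-type-labelled array, 2.14-fold lower (−1.10), and did not reach 2-fold under normexp background correction (−0.75). The copy Serpinb3d was detected on the wild-type-labelled array alone, with 2.59 on the knockout-labelled array and 12.5 on the wild-type-labelled array, so its difference has only a bound, at least 2.35-fold lower. All 4 copies were thus dimmer on the knockout-labelled array, though the Serpinb3a and Serpinb3c probes, being alike, may each read both genes.

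The promoters of these copies are close to each other too. Upstream of the annotated starts of Serpinb3a, Serpinb3b and Serpinb3c, RefSeq (GRCm38.p6, all on the minus strand) gives these stretches, shown because they carry a shared TATA box, TATAAA, in capitals.
Serpinb3a, chr1:107052343-107052478: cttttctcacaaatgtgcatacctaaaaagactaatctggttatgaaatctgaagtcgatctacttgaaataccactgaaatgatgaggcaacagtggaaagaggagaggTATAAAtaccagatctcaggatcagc
Serpinb3b, chr1:107161130-107161265: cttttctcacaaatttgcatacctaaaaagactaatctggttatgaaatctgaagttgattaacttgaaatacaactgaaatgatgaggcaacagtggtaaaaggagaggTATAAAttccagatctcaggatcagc
Serpinb3c, chr1:107278377-107278512: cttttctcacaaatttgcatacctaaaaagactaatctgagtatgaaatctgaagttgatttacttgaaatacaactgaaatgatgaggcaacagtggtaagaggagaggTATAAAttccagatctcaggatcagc
Serpinb3a shares 128 of 136 bases (94.1%) with Serpinb3b and as many with Serpinb3c, and Serpinb3b shares 132 (97.1%) with Serpinb3c. The motif begins 65, 41 and 31 bases before the annotated start of Serpinb3a, Serpinb3b and Serpinb3c.

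Other genes of the chromosome 1 cluster lay on the same side. Serpinb11, whose product in the mouse inhibits trypsin-like proteases, read 289 on the knockout-labelled array and 725 on the wild-type-labelled array, 2.51-fold lower (−1.33). Serpinb2, which blocks urokinase and is induced in stressed keratinocytes and macrophages, read 579 on the knockout-labelled array and 1312 on the wild-type-labelled array, 2.27-fold lower (−1.18, but −0.98 under quantile normalization). Serpinb7, a serpin of the upper epidermis whose loss in humans causes a palmoplantar keratosis, was detected on the wild-type-labelled array alone, with 3.90 on the knockout-labelled array and 17.7 on the wild-type-labelled array, at least 3.32-fold lower. These 3 genes, with the Serpinb3 copies, hold every difference or bound of at least 2-fold in the cluster.

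The remaining measured genes of the cluster stayed within 2-fold. Serpinb10, found in the nuclei of blood-forming cells, read 102 on the knockout-labelled array and 201 on the wild-type-labelled array (−0.98), which lies within the technical error of the 2-fold line. Serpinb12, an inhibitor of trypsin-like proteases, differed by −0.82 and Serpinb8, a furin inhibitor in human cells, by −0.71 (probes at −0.95 and −0.46). Serpinb5, or maspin, which binds no protease in the inhibitory way and is known as a suppressor of invasion, read 7311 on the knockout-labelled array and 11602 on the wild-type-labelled array (−0.67). Serpinb13, an inhibitor of lysosomal cathepsins in keratinocytes, was the only member of the cluster above background on neither array.

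The promoters of the cluster were searched for short motifs of transcription factors. The window was the 250 bases before the start, read on both strands. TATAAA stood in 7 of 11 chromosome 1 clade B promoters, in 0 of 14 on chromosome 13 and in 3504 of all 27025 promoters. Among the 7 are the copies Serpinb3a, Serpinb3b, Serpinb3c and Serpinb3d, whose hits are not independent of one another. The others are Serpinb2, Serpinb7 and Serpinb12. The promoters of Serpinb13 on chromosome 1 and Serpinb1a on chromosome 13 were not among those searched. The letters TGANTCA, the AP-1 consensus with any middle base, stood in 7 of 11, 0 of 14 and 6.87% of promoters. The stricter consensus TGAGTCA, a subset of that motif and on the other strand TGACTCA, stood in 2 of 11, 0 of 14 and 4.43%. These motifs were not confined to the chromosome 1 cluster. In clade A, Serpina1a, Serpina1b, Serpina1c and Serpina1d carry TGAGTCA. The Serpina3 group had TATAAA in 4 of 8 promoters and TGANTCA in 0 of 8. Over all 53 serpin promoters searched, TATAAA stood in 13, TGANTCA in 11 and TGAGTCA in 6. The GC content of the windows also differed, with medians of 39.2% on chromosome 1, 51% on chromosome 13 and 52% over all promoters, and its part in the motif counts was not tested. A stretch around the motif (RefSeq, GRCm38.p6, plus strand, motif in capitals) is given for 4 genes of the chromosome 1 cluster. Serpinb7 and Serpinb8 hold the strict consensus there, and Serpinb2 and Serpinb11 were lower by 2-fold or more.
Serpinb7, chr1:107422629-107422665: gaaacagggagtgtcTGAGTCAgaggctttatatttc
Serpinb8, chr1:107589968-107590004: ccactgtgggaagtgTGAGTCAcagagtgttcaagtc
Serpinb2, chr1:107511314-107511350: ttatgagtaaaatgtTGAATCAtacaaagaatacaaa
Serpinb11, chr1:107362223-107362259: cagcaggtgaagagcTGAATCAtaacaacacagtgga
Serpinb5, Serpinb10 and Serpinb12 also carry TGANTCA, and the Serpinb3 copies do not. Another motif searched, TTCNNNGAA, a site of STAT factors, stood in 0 of 11 promoters on chromosome 1, 2 of 14 on chromosome 13, 3 of 8 of the Serpina3 group and 7.18% of all. Serpina3h, Serpina3k and Serpina3m were not among the promoters searched. A match describes the sequence only.

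On chromosome 13 the genes lower by 2-fold or more were a pair of Serpinb1 copies and 1 Serpinb6 copy. Serpinb1a, which inhibits neutrophil elastase, cathepsin G and proteinase 3, read 503 on the knockout-labelled array and 1443 on the wild-type-labelled array, 2.87-fold lower (−1.52). Its copy Serpinb1c read 53.8 on the knockout-labelled array and 119 on the wild-type-labelled array, 2.21-fold lower (−1.14), from 1 of 2 probes. It did not reach 2-fold under normexp correction (−0.95) or with no filter on dim probes (−0.59). Serpinb6d read 67.7 on the knockout-labelled array and 213 on the wild-type-labelled array, 3.14-fold lower (−1.65). The third Serpinb1 copy, Serpinb1b, was above background on neither array.

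The other Serpinb6 and Serpinb9 genes showed smaller differences. Serpinb6a, a cytosolic inhibitor of cathepsin G, read 1163 on the knockout-labelled array and 1555 on the wild-type-labelled array (−0.42, SD 0.11, n = 2 probes). Serpinb6c differed by −0.66 (SD 0.32, n = 2 probes) and Serpinb6b by 0.17. Serpinb9, the granzyme B inhibitor that protects cytotoxic cells from their own enzyme, read 38.9 on the knockout-labelled array and 25.3 on the wild-type-labelled array (0.62). Serpinb6e and the 6 copies from Serpinb9b to Serpinb9g were above background on neither array.

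**Figure D2:**
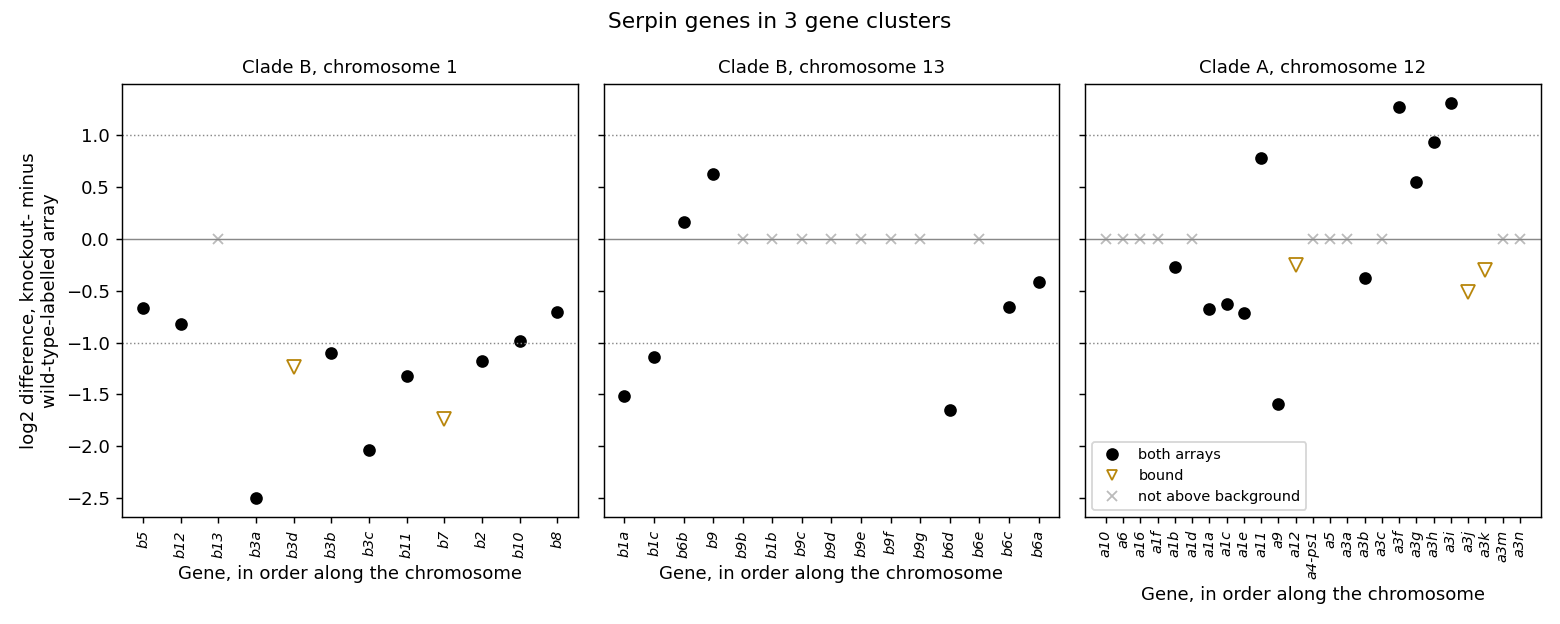
Log2 difference (knockout-labelled minus wild-type-labelled array) of serpin genes in their order along the chromosome in 3 clusters, 1 array per label. Circles are genes above background on both arrays, triangles are bounds for genes above background on 1 array, crosses at 0 mark genes above background on neither, and dotted lines mark 2-fold; the 9 circles of the chromosome 1 cluster all lie below 0.

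Genes around the clusters were compared to show whether the differences extended beyond the serpins. Within 1 Mb of the chromosome 1 cluster, 9 genes that are not serpins were measured on both arrays, 0 at least 2-fold lower and 0 higher, with 6 below 0, a median of −0.32 and a lowest difference of −0.67. A further 2 neighbours there were detected on the wild-type-labelled array alone, 1 of them with a bound of at least 2-fold lower. Around the chromosome 13 cluster, 19 neighbours had a median of −0.12, with 2 at least 2-fold lower and 0 higher, and 1 more had a bound of at least 2-fold lower. Around the clade A cluster of chromosome 12, 27 neighbours had a median of −0.11, with 2 at least 2-fold lower and 0 higher. Over all genes measured, 5.04% were at least 2-fold lower and 4.8% higher. With so few neighbours, these counts cannot decide whether the differences extended beyond the serpins.

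Markers of differentiated keratinocytes had differences of the same direction and similar median size as clade B. Of 13 suprabasal and cornified layer markers, all measured, 7 were lower by 2-fold or more and 0 higher, with a median of −1.03 and summed scaled signals of 141532 on the knockout-labelled and 242241 on the wild-type-labelled array. Of 14 markers of stressed or hyperproliferative keratinocytes, 13 were measured, 5 at least 2-fold lower and 0 higher, with a median of −0.92 and sums of 345305 on the knockout-labelled and 442054 on the wild-type-labelled array. The 8 basal keratinocyte markers had 1 member at least 2-fold higher and 0 lower, with 6 above 0, 2 below and a median of 0.18. Their sums were 166350 on the knockout-labelled and 133742 on the wild-type-labelled array. The higher sum rests on Krt5, the member at least 2-fold higher, which read 52624.7 on the knockout-labelled and 16631.7 on the wild-type-labelled array. Neutrophil markers, beside Serpinb1a, had a median of 0.13 over 12 measured, with 2 at least 2-fold higher and 0 lower and sums of 66232 on the knockout-labelled and 86701 on the wild-type-labelled array. Most of these sums came from S100a8 and S100a9, which are also in the list of stressed keratinocytes. S100a8 read 12497.5 on the knockout-labelled and 23325.5 on the wild-type-labelled array, and S100a9 read 37224.8 and 48930.4. Each of 11 markers of sebaceous glands was lower by 2-fold or more, with a median of −3.57 and sums of 2940 on the knockout-labelled and 24952 on the wild-type-labelled array. The part of any of these cells in the clade B differences was not tested, and fewer cells of a type cannot be told apart from less RNA per cell in whole tumours.

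Clade A differed within itself, by gene group. Of its 26 genes, 11 were measured, with 2 at least 2-fold higher, 1 lower and 8 neither. In all, 6 lay below 0 and 5 above, and the median was −0.27, which turned to 0.67 without probes that list or resemble another member. The plot of differences by clade shows clade A spread over both sides of 0.

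**Figure D3:**
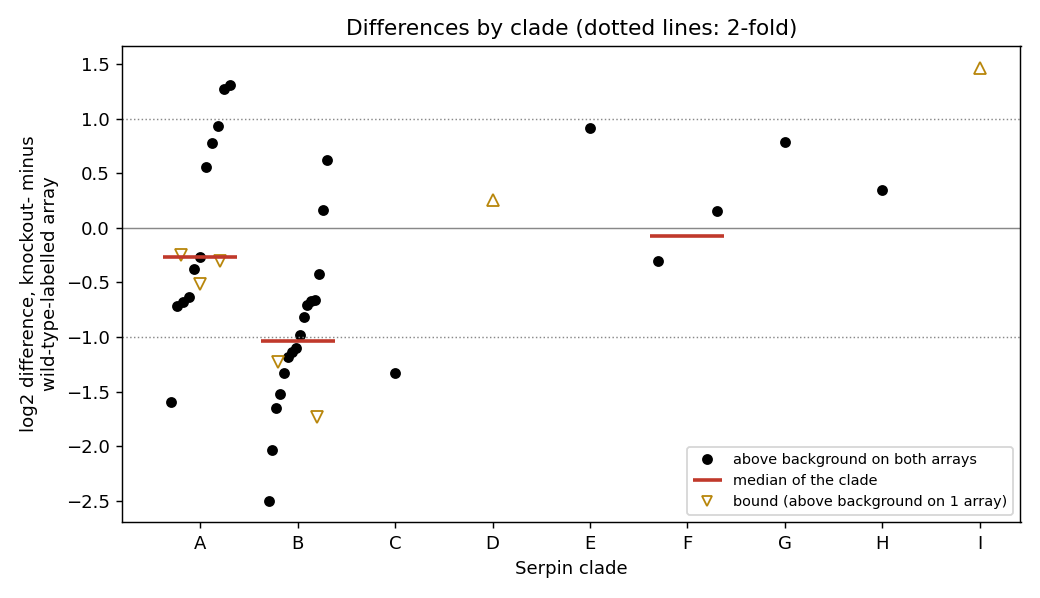
Log2 difference (knockout-labelled minus wild-type-labelled array) of serpin genes by clade, 1 array per label. Circles are genes above background on both arrays, open triangles bounds for genes above background on 1 array, red bars medians of clades with more than 1 gene plotted, and dotted lines 2-fold; clade B has a median of −1.04, with 8 genes at least 2-fold lower and 0 higher.

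The Serpina3 genes, mouse copies that descend from an ancestor shared with human antichymotrypsin, held both higher members. Serpina3i read 97.3 on the knockout-labelled array and 39.3 on the wild-type-labelled array, 2.48-fold higher (1.31, SD 0.40, n = 2 probes). Its probes differed by 1.02 and 1.59, and the probe at 1.59 is the one alike to the Serpina3h probe. Without that probe Serpina3i stood at 1.02, close to the 2-fold line. Serpina3f read 83.1 on the knockout-labelled array and 34.5 on the wild-type-labelled array, 2.41-fold higher (1.27, SD 0.05, n = 2 probes). One of the Serpina3f probes, at chr12:105492556-105492615 (mm9), read 345 on the knockout-labelled and 140 on the wild-type-labelled array. This probe also lists Serpina3h, whose own probe is at chr12:105491733-105491792, so its signal cannot be assigned to Serpina3f alone. The other Serpina3f probe, at chr12:105458989-105459048, read 20.1 on the knockout-labelled and 8.51 on the wild-type-labelled array (1.24). Under normexp background correction neither gene reached 2-fold, with Serpina3f at 0.86 and Serpina3i at 0.97, nor on the spike-in scale, at 0.80 and 0.84.

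Most of the other measured Serpina3 genes lay on the same side. Serpina3h read 158 on the knockout-labelled array and 82.4 on the wild-type-labelled array (0.94). Serpina3g, an inhibitor of lysosomal cysteine proteases in activated macrophages and T cells, differed by 0.55. Serpina3b differed by −0.37, so 4 of the 5 measured genes lay above 0, with a median of 0.94. Serpina3j and Serpina3k were detected on the wild-type-labelled array alone, with bounds of at least 1.42-fold and 1.23-fold lower, which are under 2-fold, and Serpina3a, Serpina3c, Serpina3m and Serpina3n were above background on neither array. Macrophage and monocyte markers were higher too: of 14 measured, 9 were at least 2-fold higher and 1 lower, with a median of 1.26 and sums of 8406 on the knockout-labelled and 3893 on the wild-type-labelled array, and their part was not tested.

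The alpha-antitrypsin genes of the Serpina1 group, whose products inhibit neutrophil elastase, all lay below 0 and within 2-fold. Serpina1a differed by −0.68, Serpina1b by −0.27, Serpina1c by −0.63 and Serpina1e by −0.72 (SD 0.32, n = 2 probes). Their scaled signals were low, 12.5 to 32.8 on the knockout-labelled array and 20.5 to 39.5 on the wild-type-labelled array. The Serpina1a and Serpina1c probes are alike at 50 of 51 overlapping bases, so these readings are close to 1 measurement, and Serpina1d and Serpina1f were above background on neither array.

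Serpina9 was the only clade A gene at least 2-fold lower. In humans its product is known from germinal centre B cells. It read 206 on the knockout-labelled array and 623 on the wild-type-labelled array, 3.02-fold lower (−1.60, SD 0.07, n = 2 probes), from probes at chr12:105235151-105235210 and chr12:105234830-105234889 (mm9, minus strand). Both probes gave nearly the same difference at levels of 115 and 369 on the knockout-labelled array and 361 and 1076 on the wild-type-labelled array.

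The other clade A genes were near or under background. Serpina11 read 22.4 on the knockout-labelled array and 13.1 on the wild-type-labelled array (0.78). Serpina12, or vaspin, an adipokine also made by skin, was detected on the wild-type-labelled array alone, with a bound of at least 1.19-fold lower. Serpina10, Serpina16, Serpina4-ps1, Serpina5, Serpina6 and Serpina7 were above background on neither array; Serpina6 and Serpina7 code for the plasma carriers of corticosteroids and thyroid hormone and Serpina5 for the protein C inhibitor.

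Clades C to I hold the regulators of clotting, fibrinolysis and complement, and 1 of their 7 measured genes was at least 2-fold lower, with 0 higher and a median of 0.15. That gene was Serpinc1, antithrombin, with 12.9 on the knockout-labelled array and 32.3 on the wild-type-labelled array, 2.51-fold lower (−1.33). Its value comes from 1 of 2 probes, at chr1:162934272-162934331 (mm9), which has no accession in the RefSeq table; the probe that RefSeq lists for antithrombin was not above background on either array, with 4.45 on the knockout-labelled and 3.81 on the wild-type-labelled array. The difference was −0.59 under normexp correction and −0.55 with no filter on dim probes, so it did not reach 2-fold there. Serpind1, heparin cofactor, was detected on the knockout-labelled array alone, with a bound of at least 1.19-fold higher.

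Of clade E, a pair of genes is described here. Serpine2, or protease nexin, which inhibits thrombin and urokinase at cell surfaces, read 452 on the knockout-labelled array and 240 on the wild-type-labelled array, which is 0.91 on the log2 scale (SD 0.19, n = 2 probes at 0.78 and 1.05). The probe that RefSeq lists for Serpine2 read 3540 on the knockout-labelled and 2064 on the wild-type-labelled array and lay under the 2-fold line (0.78). The probe over the line (1.05) read 57.7 on the knockout-labelled and 27.9 on the wild-type-labelled array and has no accession in the RefSeq table. Serpine3 was above background on neither array.

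Clades F, G, H and I each held few genes. Serpinf1, the pigment epithelium-derived factor that restrains vessel growth and inhibits no protease, read 210 on the knockout-labelled array and 259 on the wild-type-labelled array (−0.31, SD 0.16, n = 3 probes). Serpinf2, the plasmin inhibitor, read 6.79 on the knockout-labelled array and 6.10 on the wild-type-labelled array (0.15), near the lowest signals well above background, 5.32 on the knockout-labelled and 5.10 on the wild-type-labelled array. These differences were small beside that of Serping1, the complement C1 inhibitor, which read 318 on the knockout-labelled array and 184 on the wild-type-labelled array (0.79).

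Serpinh1, the collagen chaperone of the endoplasmic reticulum, which inhibits no protease, averaged 134 on the knockout-labelled array and 105 on the wild-type-labelled array (0.35, SD 0.05, n = 2 probes). Its probes were unlike in level. The probe that RefSeq lists for Serpinh1 read 1337 on the knockout-labelled and 1077 on the wild-type-labelled array (0.31). The other probe, on the opposite strand and with no accession in the RefSeq table, read 13.4 and 10.2 (0.39). Serpini1, or neuroserpin, an inhibitor of tissue plasminogen activator made mainly by neurons, was detected on the knockout-labelled array alone, with 14.1 on the knockout-labelled array and 3.21 on the wild-type-labelled array, at least 2.76-fold higher. Only 1 of its 3 probes was above background. Over all genes detected on 1 array, the bound reached 2-fold for 22.9% of those seen on the knockout-labelled array and 24.5% of those seen on the wild-type-labelled array. Under normexp correction 0 serpins had a bound of at least 2-fold. Serpini2 was above background on neither array.

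The proteases, receptors and other inhibitors that work with serpins were compared in lists. The protease list held 63 genes, for proteases that serpins inhibit and for proteins of the same systems, among them F3 and Hgf. Of these genes 49 were measured, with 2 at least 2-fold higher, 10 lower, 37 neither and a median of −0.16. Those furthest below 0 were enzymes of mast cells and cytotoxic lymphocytes. Mcpt1, a mast cell chymase, read 39.5 on the knockout-labelled array and 302 on the wild-type-labelled array (−2.94). Gzmb, granzyme B, the enzyme that Serpinb9 inhibits, read 5.93 on the knockout-labelled array and 36.5 on the wild-type-labelled array (−2.62). Its knockout-labelled reading was near the lowest signal well above background on that array, 5.32, so the size of its difference is imprecise. The mast cell proteases Mcpt4, Cma1 and Cpa3 differed by −2.53, −2.47 and −2.22, and Tmprss11e, a membrane protease of squamous epithelium, by −1.72.

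Other partners of the serpins described above differed less. The urokinase gene Plau differed by −0.12, and its receptor gene Plaur by 0.95, with 653 on the knockout-labelled array and 338 on the wild-type-labelled array. Elane, the neutrophil elastase that Serpinb1a and alpha-antitrypsin inhibit, differed by −0.09, and the complement proteases C1ra, C1s1 and C1s2, which Serping1 inhibits, by 0.25, 0.20 and −0.05. These 6 were looked up after the serpin values were seen. Mast cell markers had 4 of 8 measured members at least 2-fold lower and 1 higher, with a median of −0.87. Their sums were 1439 on the knockout-labelled and 1598 on the wild-type-labelled array. Cytotoxic lymphocyte markers had 3 of 9 lower and 0 higher, with sums of 333 on the knockout-labelled and 465 on the wild-type-labelled array. Both lists share genes with the proteases. Mcpt4, Cma1 and Cpa3 are among the lower mast cell markers, and Gzma and Gzmb among the lower cytotoxic lymphocyte markers. The other lower mast cell marker was Fcer1a (−1.07), and the higher one was Hdc (1.03).

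Among 15 receptors and cofactors, 13 were measured, with 0 at least 2-fold higher, 1 lower and a median of −0.03. The lower member was Thbd, thrombomodulin, the surface cofactor that turns thrombin towards protein C, with 492 on the knockout-labelled array and 2349 on the wild-type-labelled array (−2.25). Of 26 collagens and folding partners of Serpinh1, all measured, 2 were at least 2-fold higher and 0 lower, with a median of 0.14: the collagen lysyl hydroxylase Plod2, with 62.4 on the knockout-labelled array and 22.1 on the wild-type-labelled array, and the anchoring fibril collagen Col7a1 (1.27). Both list medians lay near that of all genes.

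Inhibitors of other families differed in both directions. Of 24, 21 were measured, with 2 at least 2-fold higher, 4 lower, 15 neither and a median of −0.19. Pi15, a trypsin inhibitor of the cysteine-rich secretory family, differed by −2.30, the Kazal-type inhibitors Spink12 and Spink5 by −1.31 and −1.11, and the cystatin-like Stfa2 by −1.15. Spink5, which restrains kallikreins in the upper epidermis, read 2632 on the knockout-labelled array and 5671 on the wild-type-labelled array. The metalloproteinase inhibitors Timp1 (1.28) and Timp3 (1.17) were the members at least 2-fold higher.

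**Figure D4:**
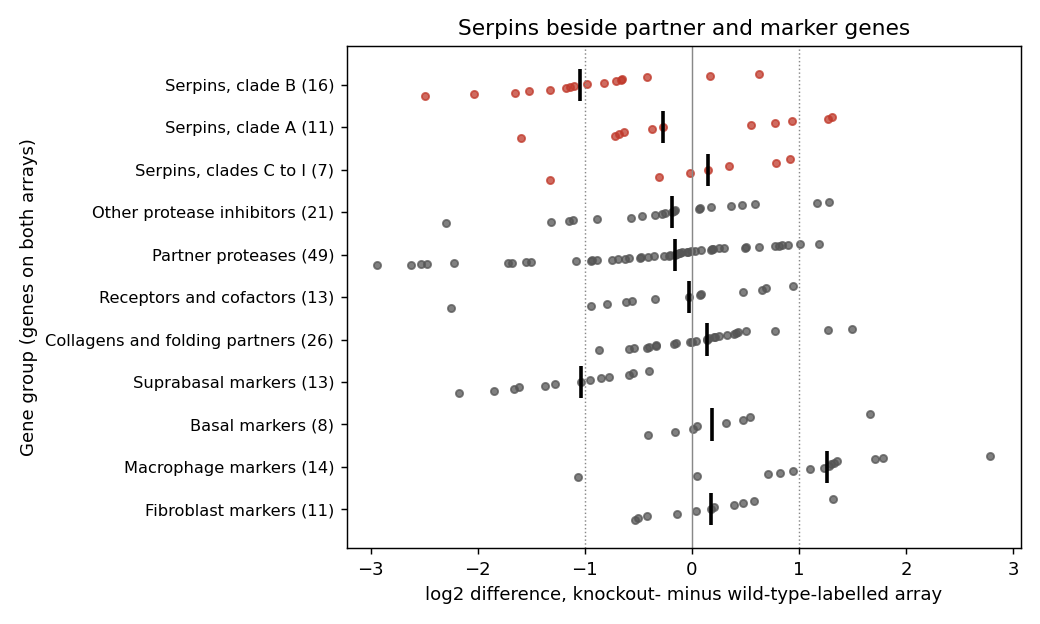
Log2 difference (knockout-labelled minus wild-type-labelled array) of each measured gene, with serpins in red and partner or marker lists in grey, 1 array per label. Black bars are medians, dotted lines mark 2-fold and the number of genes measured stands in brackets; the medians of clade B (−1.04) and of the suprabasal markers (−1.03) lie left of the other medians plotted and that of the macrophage markers (1.26) right of them; the sebaceous gland markers, with a lower median, are not plotted.

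Of 16 cytokines and regulators known to act on serpin genes, 12 were measured, with 0 at least 2-fold higher, 1 lower and a median of −0.14. Il6, which induces Serpina3 genes in the liver, read 8.04 on the knockout-labelled array and 37.2 on the wild-type-labelled array (−2.21). Il1b, differing by 0.99, and Stat3, differing by −0.05, were looked up after the serpin values were seen. Ifng, Il13, Il17a and Il22 were above background on neither array.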

How the data were processed

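Total RNA of UVB-induced skin tumours was profiled on 2 single-colour Agilent arrays, 1 per genotype, from 0.2 µg of RNA per the labels' protocols. Each array file holds the authors' spot intensity, extracted with Agilent Feature Extraction 10.7.1.1 per the submitters' processing notes, with background subtracted per the file headers and no normalization between arrays. A second deposited table holds the authors' log2 values for these arrays, in columns that share 1 distribution, and the sources used here do not give its method. Both arrays lay on 1 slide and were read in 1 scan per the file headers, which give probe positions on mm9.

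Non-uniform and population-outlier spots were removed (105 on the knockout-labelled and 102 on the wild-type-labelled array), and no spot was saturated. Each probe's value was the log2 processed signal, averaged over spots, minus the array's 75th percentile over non-control probes (327 and 347 signal units); scaled signal is the same on a linear scale. A probe counted as measured when over 50% of its spots passed the scanner's background mark on both arrays, and measured probes were averaged per gene. The call was a difference of at least 1 log2 unit (2-fold). For a gene detected on 1 array, the bound set its bright level against the dim array: the larger of the probe's own reading there and the lowest signal that passed the mark. No count of reads exists for arrays, and their number limits the precision; with 1 array per group there is no residual degree of freedom and no test was run. The scanner's own error for the 46 serpin probes measured on both arrays was 10% to 19.5% of the signal.

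All 64 array names were RefSeq symbols in a GRCm38.p6 table, used for names and promoters; 10 probes had no accession there, and 4 list 2 or more genes. Exon and UTR annotation of mm9 was not used here. Members, lists and the naming rule were chosen with earlier results of these data known. The rule named every measured serpin at least 2-fold apart, every bound of at least 2-fold, the brightest 3 members, members of clades with few measured genes, and up to 6 members of each partner list. The bound and the difference were tested on simulated data. Alternatives were normexp background correction (offset 50), quantile and cyclic loess normalization (limma 3.58.1 in R 4.3.3), the authors' deposited values, no filter and a stricter filter on dim probes (50 signal units), the brightest probe per gene, and leaving out the multi-copy subfamilies; a spike-in scale and leaving out probes alike between members were added after seeing the data. The values of 1 member are not reported here, though the counts and medians include it.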

Additional observations from a re-analysis of the deposited data

How the results depend on the processing

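No paired analysis was possible because each group has 1 array, and for the same reason no replicate could be left out. Under quantile or cyclic loess normalization, the authors' deposited values and the brightest probe per gene, each count stayed within 1.5 times its main value and each median kept its side of 0. Of 111 values of the 12 genes at least 2-fold apart under 10 alternatives, 95 moved by less than the SD between probes, 16 by more, and none changed its side of 0. The count of serpins at least 2-fold higher, 2, became 0 under normexp correction, 0 without the multi-copy subfamilies, 0 on the spike-in scale and 5 with no filter on dim probes, where 2217 of 37070 genes were; the cause was not tested, save that the subfamilies hold both genes. The count at least 2-fold lower, 10 of 34 measured, became 6 of 17 without those subfamilies, where 992 of 19737 genes were. It became 18 of 34 on the spike-in scale. That scale lowers every difference by 0.47 (8 control probes) and puts the median of all genes at −0.53. With it, 3184 of 19754 genes were at least 2-fold lower and 312 higher. On that scale the medians of the family, clade B and clade A were −1.11, −1.51 and −0.74, with 13 clade B and 4 clade A genes at least 2-fold lower. Without the subfamilies 4 clade B genes were at least 2-fold lower, out of fewer measured, and the clade B median was −1.06. With no filter, 1 clade B gene was at least 2-fold higher and 5 clade A genes lower. The clade A median turned to 0.67 without probes that list or resemble another member, which removes Serpina1 genes. The bounds of at least 2-fold, 2 lower and 1 higher, became 0 and 0 under normexp correction and 1 and 0 under the stricter filter; without the subfamilies 1 lower bound was left, and on the spike-in scale 0 higher. The measured clade B genes of chromosome 1 lay below 0 under every alternative run, except that with no filter Serpinb13, above background on neither array, read 0.13. Of the 34 measured serpins, 9 lay within 2 spot SDs of the 2-fold line, so their calls are imprecise, and dim genes such as Serpinf2 and Serpinc1 are limited by signal over background.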
